A study of Homo sapiens with 6 samples.

Results

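The regions described here are accessible chromatin sites on the chromosome arms that HCT116 cells carry in extra copies. HCT116 is an established human colon cancer line with a near-diploid karyotype. Its known gains are distal 8q, attached to a derivative chromosome 16, a duplicated stretch of 10q, and distal 17q, attached to a derivative chromosome 18. Distal 8q carries the growth-promoting transcription factor gene MYC, distal 10q carries TCF7L2, a transcription factor of Wnt signalling, and distal 17q carries AXIN2, a feedback inhibitor of that pathway. An extra copy of an arm gives more template DNA, so any sequencing assay draws more fragments from it, whether or not a site on it is more open.

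The assay was ATAC-seq: a transposase enters open chromatin, cuts it and leaves sequencing adapters behind. There were 3 libraries from NuMA-depleted HCT116 cells and 3 from wild-type HCT116 cells, with 1 deposited peak list each. NuMA is a nuclear and spindle-pole protein, and the series asks what its loss does to local chromatin. The labels used here do not give how NuMA was removed, whether the cells were 1 clone, or whether replicates were separate cultures, so p-values cover library-to-library spread alone, and that spread may be technical. A peak list holds no protein level, so the depletion itself was not checked.

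Peaks of the 6 lists were merged wherever they overlapped by at least 1 bp. A merged region was a member if its midpoint lay, in hg19 as all positions here, from 66.0 to 146.4 Mb on chromosome 8, from 97.0 to 135.5 Mb on chromosome 10, or from 38.1 to 81.2 Mb on chromosome 17. These are called the 8q, 10q and 17q segments below. The rule used positions only and no measured value. It found 4721 members among 58926 merged regions, or 8.01%, with 1795 on 8q, 1125 on 10q and 1801 on 17q. The rest of the same chromosomes held 4134 regions and is the comparison throughout. The segments span 162 Mb and the rest 201.1 Mb. No region crossed the start of a segment. Regions were not assigned to genes, because the annotation used here is of another build, and for the same reason no sequence is printed.

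The whole lists set the precision. NuMA-depleted replicates 1, 2 and 3 had 38466, 45892 and 21783 peaks, and wild-type replicates 1, 2 and 3 had 35502, 38685 and 32503. Read totals are unknown. A rough relative depth was the smallest recovered background of a list divided by its narrowest peak, on the assumption, not tested here, that the narrowest peak gives the fragment length. Scaled to a mean of 1 it was 1.07, 1.21 and 1.11 in the NuMA-depleted and 0.975, 0.869 and 0.762 in the wild-type libraries. NuMA-depleted replicate 3 stood apart with the shortest list.

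The gained segments held more called regions per Mb than the rest of their chromosomes in every library. On 8q, NuMA-depleted replicates 1, 2 and 3 had 14.1, 16.98 and 8.45 called regions per Mb in the segment, against 10.9, 13.2 and 6.35 in the rest of chromosome 8. Wild-type replicates 1, 2 and 3 had 13.2, 14.3 and 11.5 per Mb in the segment, against 10.3, 11.0 and 8.95 in the rest. The segment was denser in 6 of 6 libraries, by 1.30 ± 0.0168 times (SD, n = 6).

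Against the rest of the whole chromosome, the difference was larger on 10q. NuMA-depleted libraries had 19.5, 23.3 and 11.9 called regions per Mb in the segment, against 12.3, 14.8 and 6.76 in the rest of chromosome 10. Wild-type libraries had 18.3, 19.8 and 16.2 per Mb, against 10.9, 12.1 and 9.72. All 6 libraries were denser in the segment, by 1.65 ± 0.0696 times (SD, n = 6).

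Chromosome 17 was the densest of the 3 on both sides. NuMA-depleted libraries had 28.6, 35.2 and 16.0 called regions per Mb in the 17q segment, against 19.97, 23.6 and 9.92 in the rest. Wild-type libraries had 25.1, 29.1 and 25.5 per Mb, against 16.9, 19.9 and 17.7. The ratio was 1.49 ± 0.0668 (SD, n = 6), above 1 in 6 of 6 libraries. Its range over libraries, 1.43 to 1.61, overlapped that of 10q, 1.57 to 1.76, and not that of 8q, 1.29 to 1.33. This order depended on the comparison. Against the rest of the same arm alone, the log2 density ratio was 0.73 on 8q, 0.64 on 10q and 0.47 on 17q, so that 8q had the largest.

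**Figure D1:**
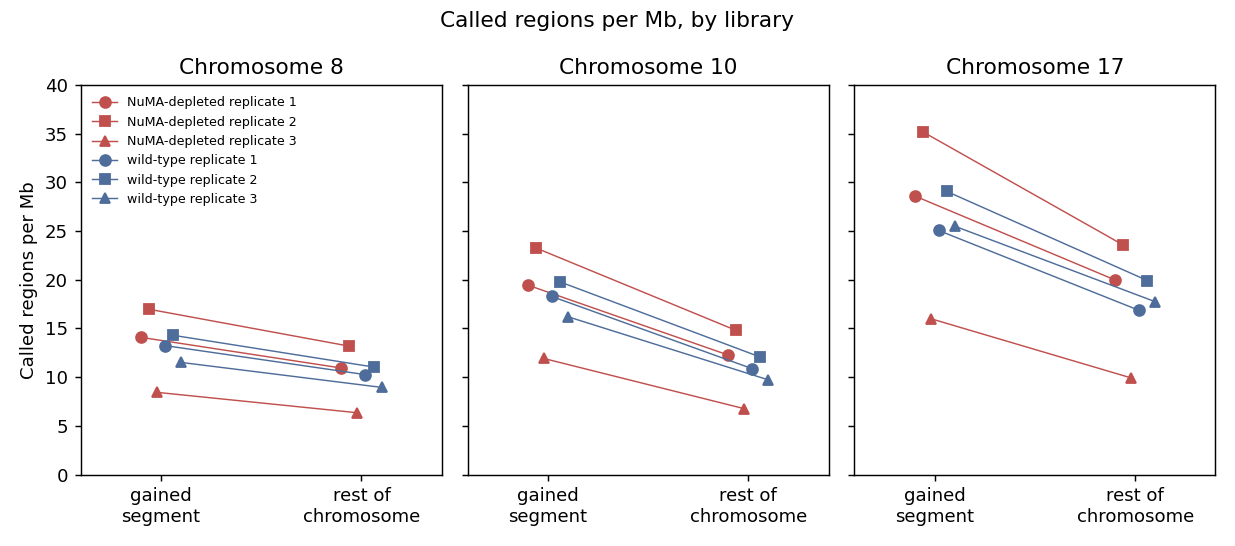
Called regions per Mb (linear axis) in each gained segment and in the rest of its chromosome, with 1 line per library (red, NuMA-depleted; blue, wild-type; the marker shape gives the replicate). All 18 lines run lower in the rest, and NuMA-depleted replicate 3 lies lowest in every panel.

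Over the 3 segments together the density ratio was 1.49 ± 0.0395 (SD, n = 6). For each of the 3 segments and for all together, an exact sign-flip permutation test on the log2 ratios of the 6 libraries gave p = 0.0312, two-sided, the smallest that 6 libraries allow, and 0.0312 after Benjamini-Hochberg adjustment over the 4 tests. The 6 libraries are of 1 cell line, were taken without a check to share 1 karyotype, and have many sites in common. This p therefore covers the spread between libraries and not that between stretches of genome. Gene content, which was not measured here, also differs along a chromosome, and its part in the density was not tested. Lengths included empty stretches, and the widest on each of the 3 chromosomes lay in the rest. With only the 1 Mb bins that held a region, the log2 density ratio was 0.23 on 8q, 0.55 on 10q, 0.49 on 17q and 0.45 pooled. With the full lengths it was 0.37, 0.72, 0.57 and 0.57, so part of the ratios above came from empty length.

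Members on 10q and 17q were called in all libraries more often than regions in the rest of their chromosomes, and members on 8q about as often. Over the whole genome 28.9% of merged regions were called in all 6 libraries. The share was 29.1% on 8q, 32.6% on 10q and 32.6% on 17q, against 28.3%, 26.9% and 27.9% in the rest of chromosomes 8, 10 and 17. Pooled, 1477 of the 4721 members were called in all 6 libraries, or 31.3%, against 1139 of 4134 in the rest, or 27.6%. Per Mb, this came to 9.12 such regions in the segments and 5.66 in the rest. Regions are not replicates, so these shares carry no test.

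At the other end, 1107 members, or 23.4%, were called in a single library, against 1033, or 25.0%, in the rest and 25.1% genome-wide. NuMA-depleted replicate 2, with the longest list, supplied 448 of the 1107, and NuMA-depleted replicate 3 supplied 31. Regions missing only in NuMA-depleted replicate 3 made up 8.94% of members, 8.73% of the rest and 8.69% of all regions. NuMA-depleted replicate 3 called 38.7% of the members and 35.1% of the regions in the rest, and NuMA-depleted replicate 2 called 80.0% and 77.5%. Pooled, each of the 6 libraries called a larger share of the members than of the rest, but on 8q alone 5 of 6 called a smaller share.

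At the median, peaks in the gained segments did not stand higher over their local background. The highest folds were more frequent there, as given below. Column 7 of each list gives the fold enrichment at the summit, a linear ratio over the caller's own estimate of background around the peak. The median fold in NuMA-depleted replicates 1, 2 and 3 was 6.998, 6.47 and 5.95 in the 3 segments together, against 6.92, 6.58 and 5.95 in the rest. In wild-type replicates 1, 2 and 3 it was 6.42, 7.21 and 6.84, against 6.57, 7.31 and 6.75. The segments had the higher median in 3 libraries and the lower in 3.

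By segment, the ratio of median folds, segment over rest, was 0.986 ± 0.0285 on 8q, 1.01 ± 0.0154 on 10q and 1.001 ± 0.0219 on 17q (SD, n = 6 each). Pooled it was 0.995 ± 0.0152 (SD, n = 6), within 0.978 to 1.01 in single libraries. The exact sign-flip test gave p = 0.438 pooled (adjusted 0.583), and the adjusted p was 0.562, 0.5 and 1 for 8q, 10q and 17q. A p above the threshold does not show that the folds were equal. The sign of this small difference also depended on the peaks used: on isolated peaks, defined below, the pooled log2 ratio was 0.03, with an exact p of 0.0625.

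The significance of the same peaks was higher in the segments. The median −log10 q in NuMA-depleted libraries was 15.01, 15.6 and 10.7 in the segments, against 12.0, 13.2 and 8.51 in the rest. In wild-type libraries it was 12.0, 13.9 and 12.5, against 9.92, 11.7 and 10.3. The difference was 2.35 ± 0.335 units pooled (SD, n = 6), positive in 6 of 6 libraries for every segment, and it came to 1.87 on 8q, 3.02 on 10q and 2.002 on 17q (exact sign-flip p = 0.0312, adjusted 0.0312, for each). Against the rest of 8q alone, without 8p, the 8q difference was 1.74 and missed the threshold, with an exact p of 0.0625. In rank terms, members had a median list percentile of 56.4 to 59.9 by q over the libraries, against 45.5 to 48.2 for the rest. By fold these percentiles overlapped, at 46.7 to 49.8 against 46.8 to 50.0.

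The 2 quantities behind the fold were then separated. The caller is not named, so its fold was assumed to be the pileup plus 1 over the background plus 1, and its p-value a Poisson upper tail. Under that assumption, fold and p-value together fix the number of fragments piled up at the summit and the local background in fragments. A whole-number pileup that returned the listed −log10 p to within 0.01 was found for 99.986% to 99.994% of peaks of each list. Backgrounds are given relative to the smallest background of the same list, and the background is built from the reads around a peak. It was the measure set beside the known gains of the line; copy number itself was not measured.

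Local background was higher in all 3 segments than in the rest of their chromosomes. Relative to the smallest value of the list, NuMA-depleted libraries had a median background of 2.997, 2.83 and 2.89 in the segments, against 2.10, 2.03 and 1.96 in the rest. Wild-type libraries had 3.19, 3.37 and 3.42, against 2.17, 2.35 and 2.45. No library of the segments came down to any library of the rest. The ratio was 1.35 ± 0.0711 on 8q, 1.48 ± 0.0375 on 10q, 1.33 ± 0.0473 on 17q and 1.43 ± 0.036 pooled (SD, n = 6 each; exact sign-flip p = 0.0312 and adjusted 0.0312 for each, in 6 of 6 libraries).

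The pileup at the summit followed. NuMA-depleted libraries had a median of 28, 33 and 25 fragments in the segments, against 22, 26 and 19 in the rest. Wild-type libraries had 25 in each of the 3, against 19, 20 and 19. The ratio was 1.26 ± 0.0703 on 8q, 1.36 ± 0.0327 on 10q, 1.24 ± 0.0345 on 17q and 1.29 ± 0.0294 pooled (SD, n = 6 each), again in 6 of 6 libraries with an exact sign-flip p of 0.0312 and an adjusted p of 0.0312 for each. Pileup and background were both higher in the segments, the background by the larger factor. Both were recovered from the same fold and p-value, so their tests are not independent of those on fold and −log10 q. The median fold, which adds 1 to each, did not differ beyond the spread of the libraries.

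**Figure D2:**
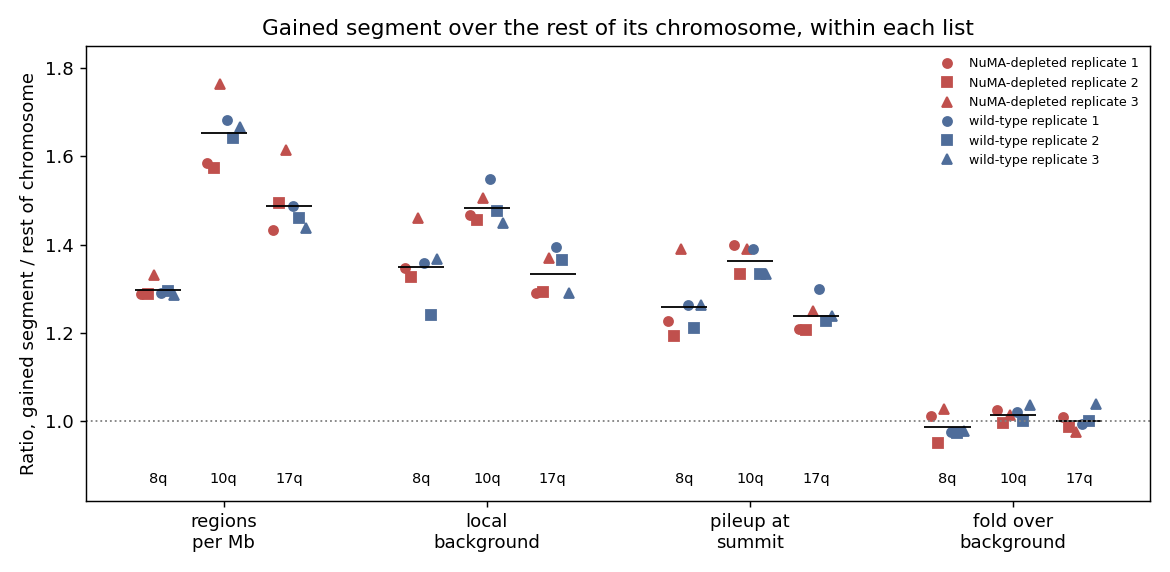
Ratio of the gained segment to the rest of its chromosome (linear axis) for called regions per Mb and for the medians of recovered background, pileup and fold, by segment; each point is 1 library and each black bar the mean of 6. Points for the first 3 quantities all lie above the dotted line at 1, from 1.19 upwards, and those for the fold straddle it, from 0.951 to 1.04.

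Few peaks in the segments sat within 1% of the smallest background of the list. That level was assumed, without a check, to be the one the caller uses where the local estimate is lower. The share of such peaks was 0.666%, 1.003% and 0.698% in NuMA-depleted libraries, against 4.28%, 4.76% and 4.88% in the rest. In wild-type libraries it was 2.003%, 1.77% and 0.818%, against 7.78%, 5.50% and 3.38%. The segments were lower in 6 of 6 libraries.

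A background taken around a peak also counts reads of neighbouring peaks, and the segments were denser in peaks. The comparison was therefore repeated on isolated peaks, those with no other peak of the same list within 10 kb, a choice made after seeing the data. Their median relative background in the segments was 2.49, 2.33 and 2.66 in NuMA-depleted libraries, against 1.83, 1.77 and 1.88 in the rest. Wild-type libraries had 2.64, 2.68 and 2.87, against 1.89, 1.98 and 2.16. The difference held in 6 of 6 libraries. Isolation leaves any fragments of the peak itself in its background, so background and pileup may not be independent. The share of such fragments was not measured.

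Close to the start of each segment the background of isolated peaks was higher inside than outside. On 8q this sets the start against a local low outside it, described below. Within 5 Mb on each side it was 1.29 ± 0.188 times higher inside on 8q, 1.38 ± 0.0968 times on 10q and 1.08 ± 0.0317 times on 17q (SD, n = 6 each), higher inside in 6 of 6 libraries for each. Within 10 Mb on each side it was 1.30 ± 0.0770, 1.57 ± 0.112 and 1.28 ± 0.0421 times higher on 8q, 10q and 17q (SD, n = 6 each). The exact sign-flip p was 0.0312 for each of these (adjusted 0.0312). As few as 19 isolated peaks of a library lay within 5 Mb on either side of the 8q start, so single values there are imprecise.

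The background was uneven inside the segments as well. In steps of 4 Mb, relative to each list's own median over all isolated peaks, it averaged 1.01 ± 0.116 in the first step inside the 8q segment and 0.710 ± 0.0860 in the last step outside (SD, n = 6 each). That last step outside was the lowest of the rest of chromosome 8, whose steps had a median of 0.934 and reached 1.18. Over the first 28 Mb inside 8q, steps averaged 0.877 to 1.06, within the range of the rest. Of the 18 steps inside 8q, 12 averaged above 1. Inside 8q the background was lowest from 40 to 44 Mb into the segment, at 0.787, and highest from 76 to 80 Mb, at 2.15. On 10q it was highest from 4 to 8 Mb into the segment, at 1.65, and 9 of its 10 steps averaged above 1, the last, from 36 Mb on, being lowest at 0.684 ± 0.0530 (SD, n = 6). That end of the segment lay below the rest of chromosome 10, where the lowest step with at least 10 peaks in every library averaged 0.717. A sparser step of the rest, with as few as 4 peaks in a library, averaged 0.641. On 17q all 11 steps averaged above 1, from 1.02 to 2.02, but so did 7 of 9 steps in the rest of chromosome 17, against 4 of 14 in the rest of chromosome 8 and 6 of 21 in the rest of chromosome 10.

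**Figure D3:**
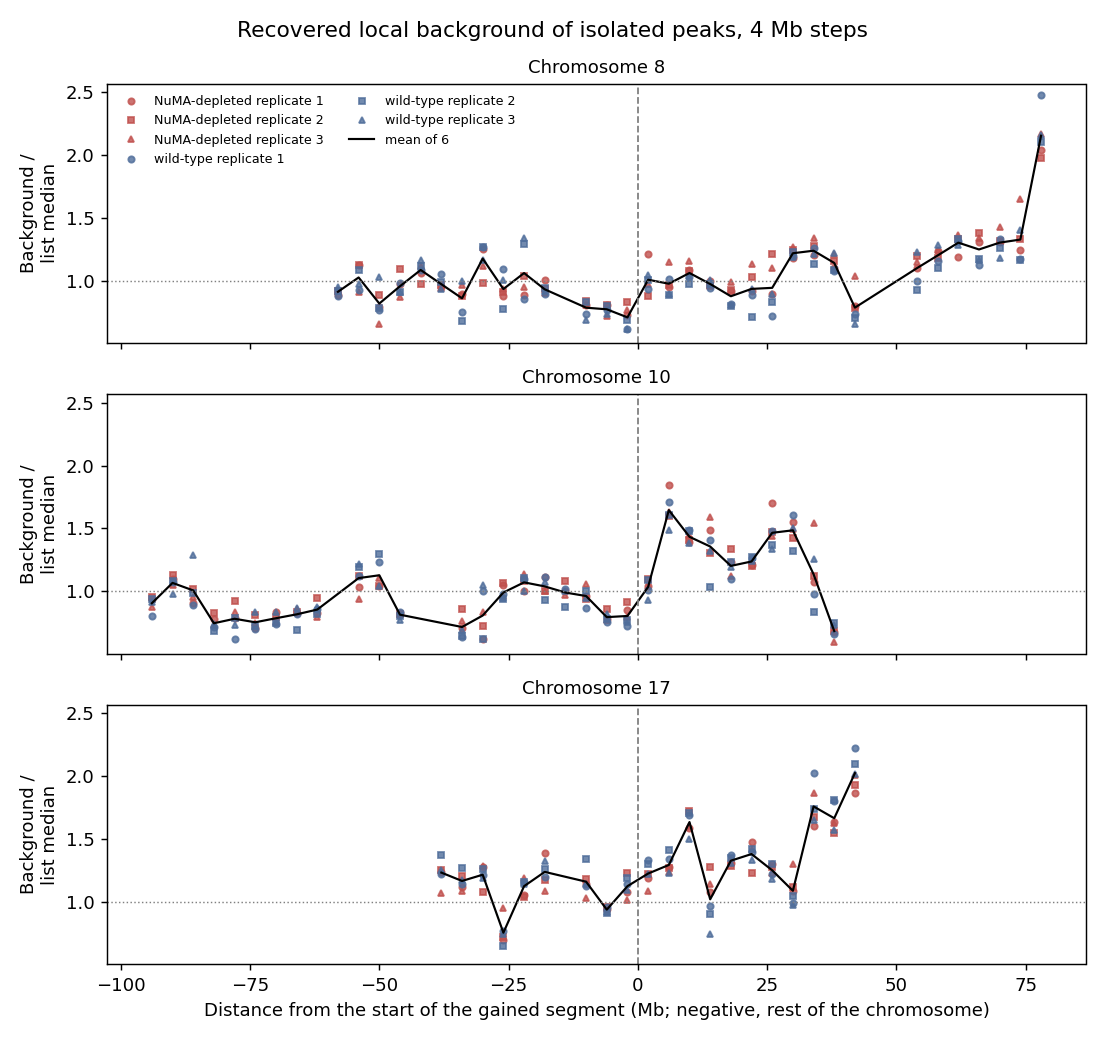
Recovered background of isolated peaks, as a ratio to the list's own median, by distance in Mb from the start of each gained segment (dashed line; negative distances are the rest of the chromosome), in 4 Mb steps with at least 10 peaks in every library. Points are libraries and the black line their mean. Just inside and just outside the start the mean is 1.01 and 0.710 on chromosome 8, 1.04 and 0.804 on chromosome 10, and 1.23 and 1.13 on chromosome 17.

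Set against the other chromosomes, the segments lay near the top but not alone. Among 26 units (20 other chromosomes, 3 segments and 3 remainders), the 17q segment ranked 1 by the background of isolated peaks, at 2.92 ± 0.216 times the smallest of the list, 10q ranked 4 at 2.57 ± 0.195 and 8q ranked 6 at 2.38 ± 0.181 (SD, n = 6 each). Chromosomes 19, 14 and 16, which the rule does not list, had 2.62, 2.58 and 2.45. Chromosome 22, also not listed, ranked 7 at 2.38 ± 0.209 (SD, n = 6), level with 8q. The remainders of chromosomes 17, 8 and 10 had 2.25, 1.86 and 1.79 and ranked 8, 19 and 21. The X chromosome, which HCT116 carries in a single copy, was lowest at 1.31 ± 0.126. The median fold of the 3 segments averaged 6.72, 6.81 and 6.50 on 8q, 10q and 17q, inside the 6.44 to 7.08 spanned by all units.

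**Figure D4:**
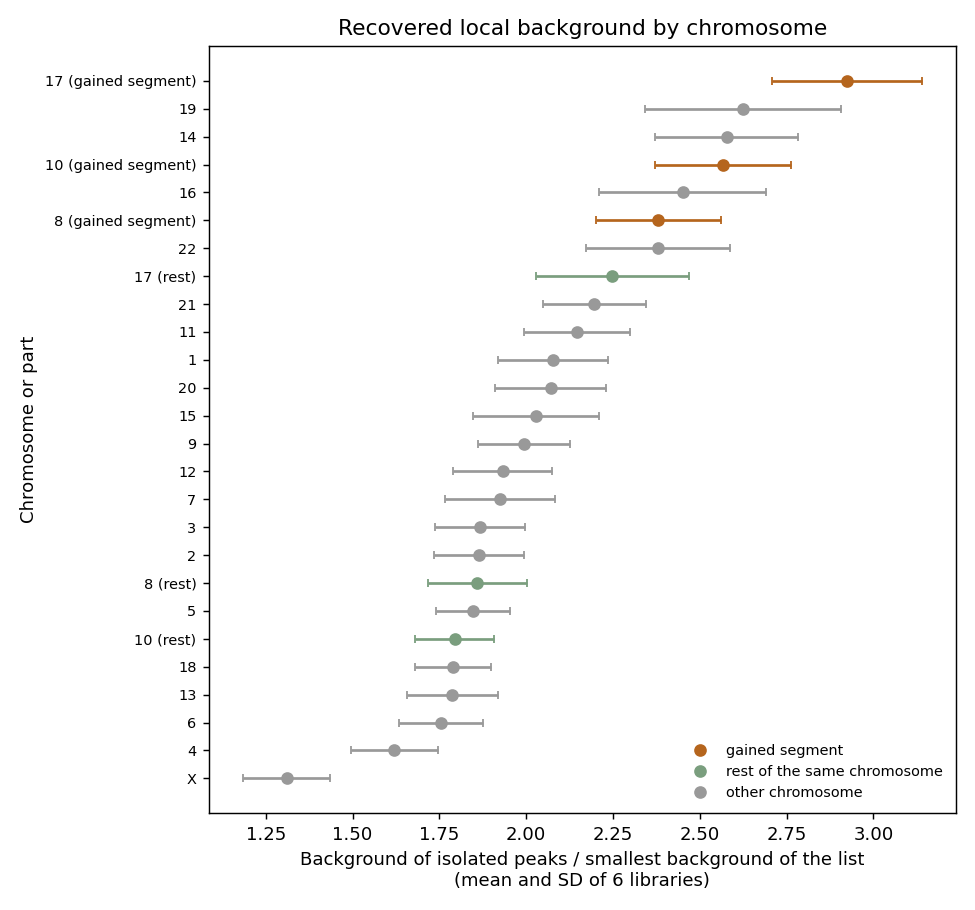
Recovered background of isolated peaks relative to the smallest background of the list, as mean and SD of 6 libraries, for each gained segment (brown), the rest of the same chromosomes (green) and the other chromosomes (grey), ordered by value. The 3 segments lie at 2.38 to 2.92 and their remainders at 1.79 to 2.25; chromosomes 19, 14 and 16 lie among the segments.

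The excess of peaks in the segments depended on what peaks were ranked by. Among the 5000 strongest peaks of each library by −log10 p, the segments held 3.13 ± 0.214 times as many per Mb as the rest (SD, n = 6). Among the 5000 with the highest pileup the ratio was 3.98 ± 0.214, and among the 5000 with the highest fold 1.76 ± 0.0704 (SD, n = 6 each). With all peaks, placed by summit, it was 1.48 ± 0.0432 (SD, n = 6). The 10q segment had the highest ratio of the 3 by each ranking of 5000 peaks, with 4.19 by −log10 p, 5.73 by pileup and 2.09 by fold. On 8q these were 2.84, 4.39 and 1.63, and on 17q 2.47, 2.64 and 1.64.

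The ranking by fold did not bring the excess down to 1. Among the 5000 highest folds the pooled ratio was 1.68 to 1.84 over libraries, above the 1.44 to 1.57 with all peaks. Pooled, the highest folds were thus more frequent in the segments than the density of all peaks gives, unlike the median fold. Peaks with a fold of at least 10 numbered 2.43, 1.93 and 0.444 per Mb of the segments in NuMA-depleted libraries, against 1.502, 1.10 and 0.214 per Mb of the rest. In wild-type libraries they numbered 1.61, 3.56 and 1.51 per Mb, against 0.825, 2.02 and 0.885. All 6 libraries had more of them in the segments. Peaks covered 6.02 to 14.9 kb per Mb of the segments, against 3.61 to 9.87 kb per Mb of the rest, and pooled median peak widths were 432 to 548.5 bp against 412.5 to 532 bp, higher in the segments in 6 of 6 libraries for both. By segment the median width was higher in 6 of 6 libraries on 8q, in 5 of 6 on 10q and in 3 of 6 on 17q.

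**Figure D5:**
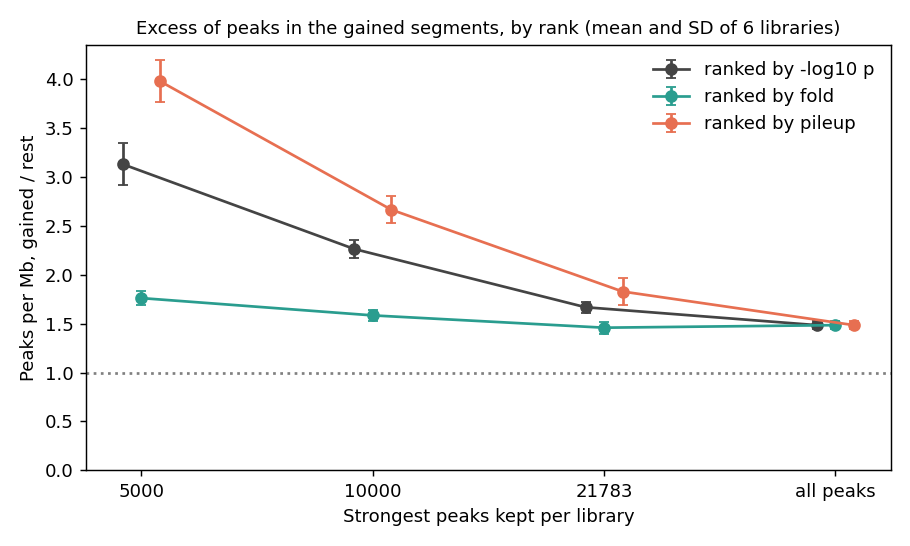
Peaks per Mb in the 3 gained segments over the rest of their chromosomes (linear axis, mean and SD of 6 libraries), for the strongest 5000, 10000 or 21783 peaks of each library and for all peaks, ranked by −log10 p (dark), fold (green) or pileup (orange). The ratio reaches 3.98 by pileup, 3.13 by −log10 p and 1.76 by fold at 5000 peaks, and the 3 lines meet at 1.48 with all peaks.

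NuMA depletion did not move the balance between the segments and the rest beyond the spread of the libraries. The log2 density ratio was 0.58 ± 0.0594 in NuMA-depleted libraries and 0.57 ± 0.00629 in wild-type ones (SD, n = 3 each), a difference of 0.004 with p = 1 (exact permutation test, two-sided; adjusted 1 over 4 tests). By segment the differences were 0.01 on 8q, -0.02 on 10q and 0.05 on 17q, each with overlapping groups and an adjusted exact p of 1. The log2 fold ratio differed by 0.009 pooled (exact p = 0.8), and the log2 background ratio by -0.002 (exact p = 0.9). With 3 libraries against 3 the exact p cannot go below 0.10, so no such difference could have passed the threshold of 0.05.

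The share of a library's peaks that lay in the segments was likewise close in both groups. It was 8.19%, 8.26% and 8.55% in NuMA-depleted libraries and 8.16%, 8.32% and 8.28% in wild-type libraries. NuMA-depleted libraries averaged 8.33% ± 0.192 and wild-type libraries 8.25% ± 0.0846 (SD, n = 3 each), a difference of 0.0827 percentage points (exact permutation p = 0.7, adjusted 0.9). The highest share was that of NuMA-depleted replicate 3, the shortest list. That library also had the highest density ratio of the 6, 1.56, and without it the pooled log2 difference was -0.03.

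No single stretch of the segments passed the test either. In 1 Mb bins over the genome, limma with Benjamini-Hochberg adjustment called 0 of 2022 bins, a background of 0%, and 0 of the 130 bins in the segments. At an unadjusted p under 0.05 there were 8 of 130 segment bins, or 6.15%, against 114 of 2022 bins genome-wide, or 5.64%. The segment bins had a median log2 difference of 0.006, NuMA-depleted minus wild-type, against 0.001 for all bins, with 69 above and 61 below 0. The segment bin with the smallest p, picked after its value was seen, ran from 129 to 130 Mb on chromosome 8. It held 19, 20 and 11 peaks in NuMA-depleted libraries against 14, 11 and 7 in wild-type ones. The log2 difference in its share of peaks was 0.70 (SE 0.191, limma adjusted p = 0.872).

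Regions called in 1 group alone were about as frequent in the segments as elsewhere. In the segments 25 members, or 0.530%, were called in every NuMA-depleted and no wild-type library, against a background of 0.625% over the genome. The reverse pattern, every wild-type and no NuMA-depleted library, held for 30 members, or 0.635%, against a background of 0.592%. They divided into 10, 6 and 9 depleted-only and 13, 5 and 12 wild-type-only members on 8q, 10q and 17q. Most were weak calls, since the weakest −log10 q reached 10 in 1 of the 25 and in 5 of the 30, against 857 of the 1477 members called in all 6 libraries. Leaving out a library loosens the criterion by construction, and the counts moved with it: without NuMA-depleted replicate 3 there were 228 depleted-only members, or 4.86%, against 4.59% of regions genome-wide. Without NuMA-depleted replicate 1, wild-type replicate 1 or wild-type replicate 2 there were 46, 38 and 50, or 1.01%, 0.831% and 1.11% of members, against 1.04%, 0.999% and 1.25% of regions genome-wide. Wild-type-only members numbered 100 without NuMA-depleted replicate 2, 54 without NuMA-depleted replicate 1, 66 without wild-type replicate 1 and 81 without wild-type replicate 3. These were 2.34%, 1.19%, 1.44% and 1.75% of members, against 2.39%, 1.08%, 1.38% and 1.70% of regions genome-wide. Absence from a list is a call below the threshold and is no measure of closed chromatin.

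The depleted-only members named had lower folds than the strongest shared members of their segment, though single values came close. This order follows largely from the selection. The shared members were picked by the highest weakest −log10 q, and depleted-only members miss the threshold in every wild-type library. On chromosome 8 at 136697625 to 136697960 the folds were 6.18, 6.56 and 6.49 in NuMA-depleted replicates 1, 2 and 3. On chromosome 17 at 57930682 to 57931087 they were 9.59, 7.77 and 5.99, and on chromosome 10 at 101130752 to 101131122 they were 7.57, 5.61 and 6.38. Over all 9 named by the rule, 3 per segment with the highest weakest −log10 q, single folds spread from 4.16 to 9.59, the low end on chromosome 17 at 70387177 to 70387821 and the high end at the chromosome 17 region already given.

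The highest fold of a single wild-type-only member was above that of any depleted-only member named, but the sets as a whole ran the other way. The mean fold over libraries had a median of 6.08 over the 25 depleted-only and 5.31 over the 30 wild-type-only members. On 10q the region at 116267001 to 116267650 had folds of 8.64, 13.2 and 9.49 in wild-type replicates 1, 2 and 3, and the next, at 117332514 to 117333011, had 8.80, 8.58 and 7.38. On 8q the leading members lay at 145673557 to 145674181, with folds of 5.82, 9.04 and 6.56, and at 144313775 to 144314000, with 6.29, 7.91 and 8.13. On 17q the leading one, at 79543720 to 79544225, had 6.31, 5.89 and 7.49. Both 8q regions lie in the step, 76 to 80 Mb into the segment, where its background was highest.

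Members called in all 6 libraries were wider and stood higher. Their median width was 924 bp and their mean fold over libraries had a median of 7.81, against 296 bp and 4.69 for the members called once. Part of this contrast is built in. A merged region spans the peaks of all its lists, and a call in all 6 lists selects strong peaks. The strongest of 8q, by the weakest −log10 q of the 6 libraries, lay at 93977388 to 93978665. Its folds were 13.8, 13.0 and 13.4 in NuMA-depleted libraries and 11.5, 14.8 and 14.3 in wild-type ones. The groups overlapped there, as at 86132181 to 86133546, with folds of 11.0 to 12.7. At 118532368 to 118533565 they did not, with 11.4, 9.81 and 11.8 in NuMA-depleted libraries and 12.5, 14.0 and 12.5 in wild-type ones. How often the groups separate over all shared members was not counted, so this is not read as an effect of depletion.

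On 10q the strongest shared member, at 122610301 to 122611348, had folds of 13.6, 12.3 and 14.1 in NuMA-depleted libraries and 14.2, 15.9 and 11.7 in wild-type ones. It was followed by 121651618 to 121652797, with folds of 10.3 to 13.1. The third, at 101418500 to 101419501, had 11.1, 10.3 and 10.4 in NuMA-depleted libraries and 14.0, 13.3 and 15.2 in wild-type ones. The groups did not overlap at this region, the NuMA-depleted folds being lower. Here too the share of shared members with separate groups was not counted, and no effect of depletion is read from it. Folds are the authors' own values per list, and single regions were not tested.

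On 17q the strongest shared member lay at 58754672 to 58755639, where folds were 10.4, 11.7 and 11.0 in NuMA-depleted libraries and 11.3, 11.8 and 11.3 in wild-type ones. The next lay at 54776370 to 54777272, with folds of 10.3 to 11.6, and at 74536661 to 74537341, with 10.2 to 13.5. The groups overlapped at each of these 3 regions.

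Among members called in 1 library, the one with the highest fold was picked after its value was seen. On chromosome 8 at 70602342 to 70602602, a stretch of 261 bp had a fold of 28.5 and a −log10 q of 385 in wild-type replicate 2 and no peak in the other libraries. The next highest fold of a member called once was 11.1, on chromosome 17 at 46385315 to 46385577, in NuMA-depleted replicate 1.

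The longest shared members were broader, with folds under those of the strongest. On 17q, 46100787 to 46104165 spanned 3379 bp with folds of 4.38 to 5.66 over the 6 libraries, and 75281676 to 75284279 spanned 2604 bp with 3.61 to 4.501. On 10q, 118764093 to 118766796 spanned 2704 bp with folds of 6.49 to 8.55, and 128946367 to 128948675 spanned 2309 bp with 5.04 to 7.25. On 8q, 145702412 to 145704813 spanned 2402 bp with 3.38 to 5.79, and 125486439 to 125488677 spanned 2239 bp with 6.38 to 8.30. Each of these had folds under the strongest members of its own segment, which were picked by −log10 q, so this order follows in part from the selection.

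Members were clustered within each segment. The median 1 Mb bin held 22 members on 8q, 30.5 on 10q and 44 on 17q. The fullest bins held 64 members on 8q from 126 to 127 Mb, 65 on 10q from 114 to 115 Mb and 80 on 17q from 79 to 80 Mb. In the 8q bin 49, 51 and 33 of the 64 were called in NuMA-depleted libraries and 37, 40 and 36 in wild-type ones, with overlapping groups. In the 10q bin these were 42, 51 and 28 against 42, 42 and 34, and in the 17q bin 62, 68 and 38 against 57, 67 and 62.

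Long stretches held no member at all. The widest on 8q ran for 2687 kb, from 137012188 to 139698713, the widest on 10q for 1919 kb, from 108384838 to 110304220, and the widest on 17q for 3065 kb, from 49842189 to 52906926. In all, 7 of 80 whole 1 Mb bins on 8q, 1 of 38 on 10q and 2 of 43 on 17q were without a called region. The density of a segment is therefore an average over crowded and empty stretches in each of the 3 segments.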

How the data were processed

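ATAC-seq peak lists of 3 NuMA-depleted and 3 wild-type HCT116 libraries were analysed, grouped by the labels, with 1 list per library. The authors deposited narrowPeak files in hg19 coordinates with, per peak, a score, a fold-enrichment ratio (column 7), −log10 p and −log10 q values and a summit offset. Reads were processed with Trim Galore, Bowtie2 2.4.1 and Picard, per the submitters' processing notes. The peak caller and its settings were not named in those notes. The smallest deposited −log10 q was 2.00 in every list, so absence from a list means a missed threshold. Every deposited fold, q and width was used as given, and the score column was not used.

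Peaks were merged across lists at 1 bp of overlap, and a region's midpoint decided its segment. Peaks were placed by summit. Pileup and local background were recovered from fold and −log10 p on the assumption that the fold carries a pseudocount of 1 and the p is a Poisson upper tail. The recovery step was tested on data simulated under the same assumption, so that test cannot check the assumption itself. Gained segments and rest were compared within libraries by exact sign-flip tests over 6 libraries. NuMA-depleted and wild-type libraries were compared by exact permutation tests, both two-sided, with Benjamini-Hochberg adjustment over 4 tests (the 3 segments and all together). Peak counts in 1 Mb bins, as log2 share with a pseudocount of 0.5 and a mean of at least 5 peaks, were fitted genome-wide with limma 3.58.1 in R 4.3.3. Other steps used Python 3.11.15, pandas 2.3.3, numpy 2.4.6 and scipy 1.17.1.

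The regions named were, per segment, the 3 strongest (by the weakest −log10 q) and 2 longest called in all 6 libraries, the 3 strongest of each group-only pattern, the fullest 1 Mb bin and the widest empty stretch. The segments, gene lists and tests were chosen with earlier results of these data known. The gene lists were not used here, since no annotation of hg19 was used. The alternatives left out each library in turn, kept equal numbers of peaks or a −log10 q of 5 or more, and used boundaries moved by 1 Mb, the rest of the same arm, peaks placed by summit, bins with a region, other bin settings, a peak covering 50% of the merged region and the replicate block. Isolated peaks, ranking by fold, the 5 and 10 Mb sides of a segment's start and the strongest 5000, 10000 or 21783 peaks were added after seeing the data. Intervals for counting error were not computed, because read totals are unknown.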

Additional observations from a re-analysis of the deposited data

How the results depend on the processing

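Density, −log10 q, background and pileup were higher in the gained segments in the pooled comparison under every alternative run, and each loss of the threshold came with fewer libraries except 1: against the rest of the same arm the −log10 q difference on 8q was 1.74, with an exact p of 0.0625. With 1 library left out 5 remain and the exact p cannot go below 0.0625, so these tests lose the threshold by construction. The pooled log2 ratios then spanned 0.56 to 0.58 for density, 0.51 to 0.53 for background and 0.36 to 0.38 for pileup, and the −log10 q difference spanned 2.23 to 2.41. Values near 0 changed sign, and the cause was not tested. The log2 fold ratio, segments over rest, was 0.0300 pooled and 0.0198 on 8q with isolated peaks, 0.0242 pooled and 0.0432 on 8q with equal numbers ranked by fold, -0.0261 on 10q and -0.0320 on 17q with equal numbers of peaks, -0.00938 on 17q at a −log10 q of at least 5 and -0.0143 on 17q against the same arm. Leaving out 1 library, it spanned -0.0102 to 0.00796 on 17q and -0.0122 to -0.00195 pooled. The effect of depletion on the log2 density ratio was -0.0219 pooled and -0.0180 on 8q against the same arm and 0.00065 on 10q ranked by fold. Its effect on the log2 fold ratio was, pooled, -0.00781 with equal numbers, -0.00622 with isolated peaks and -0.0196 ranked by fold, on 8q -0.00288 at a −log10 q of at least 5, -0.0123 with equal numbers and -0.0261 ranked by fold, and on 17q 0.000136 against the same arm. Its effect on the log2 background ratio was 0.00784 pooled and 0.0527 on 17q with isolated peaks, and 0.0346 pooled, 0.0128 on 10q and 0.0062 on 17q ranked by fold. That effect was -0.00457 on 8q and 0.0165 on 10q with equal numbers, -0.0539 on 8q and 0.0104 on 10q against the same arm, and 0.00466 on 10q at a −log10 q of at least 5. The effect on the share of peaks on 17q was 0.0796 percentage points ranked by fold. With each library left out, the depletion effect pooled spanned -0.0295 to 0.0257 for density, -0.00176 to 0.0239 for fold, -0.0251 to 0.0178 for background and -0.0264 to 0.154 percentage points for the share. On 8q it spanned -0.0031 to 0.0202 for density. On 10q it spanned -0.0748 to 0.0073 for density, -0.0241 to 0.00169 for fold, -0.0341 to 0.0144 for background and -0.0258 to 0.0690 points for the share, and on 17q -0.107 to 0.0554 points for the share. Members called in all libraries made up 38.6% with equal numbers of peaks, 17.9% where a peak had to cover 50% of the region, and 32.9% to 40.5% with 1 library left out, against 33.9%, 15.5% and 30.6% to 37.8% of regions genome-wide. Depleted-only members numbered 42 with equal numbers, 42 under that cover and 25 to 228 with 1 library left out, or 1.43%, 0.890% and 0.585% to 4.86%, against 1.26%, 0.799% and 0.803% to 4.59% genome-wide. Wild-type-only members numbered 32 to 100 with 1 library left out, or 0.682% to 2.34%, against 0.632% to 2.39% genome-wide. In the bins, 0 passed under each alternative, and the smallest adjusted limma p ran from 0.141 to 0.993. Same-numbered libraries did not deviate together (r of -0.0771, 0.0923 and 0.00668), so the numbers are not taken as pairs. With the replicate block 0 bins passed (smallest adjusted limma p 0.889), and the pooled log2 density effect was 0.0044 with an exact p of 1. Read totals are unknown, which leaves the depth limit of single regions unmeasured.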
